A study of Mus musculus with 8 samples.

Results

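The genes described here are 10 endothelial and angiogenic genes, chosen by name and not by their values. They are the junction genes Pecam1 and Cdh5, the VEGF receptors Kdr, Flt1 and Flt4, the TIE receptors Tek and Tie1, the storage protein gene Vwf and the angiopoietins Angpt1 and Angpt2. All 10 symbols were matched to 1 identifier each in GENCODE M21, out of 55487 genes in the count table, and all 10 passed the count filter with 16061 genes in total. Bulk RNA-seq was performed on tumors of LLC (Lewis lung carcinoma) cells, which derive from a mouse lung cancer and were implanted in the flank of syngeneic C57BL/6J mice, female and 6 to 8 weeks old per the study's methods. Of 8 tumors taken at day 12, 4 held wild-type cancer cells and 4 held cancer cells labelled Ago2 knock-out (ΔAgo2). The ΔAgo2 cells came from a lentiviral CRISPR vector with puromycin selection, and the study states that a single clone was engrafted, so the genotype and that clone cannot be told apart. Whether the wild-type cells carried a control vector was not given in the sources used here. The vessels of both groups grew from host cells, which keep Ago2, so the genotype label refers to the cancer cells and not to the endothelium.

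Endothelial cells line blood and lymphatic vessels. VEGF ligands act on them through the receptor tyrosine kinases encoded by Kdr (VEGFR2, the main signaling receptor), Flt1 (VEGFR1, which also occurs as a soluble decoy) and Flt4 (VEGFR3, best known from lymphatic endothelium). Angpt1, made mainly by perivascular and other stromal cells, activates the receptor TIE2 encoded by Tek and favors quiet, stable vessels, while Angpt2, made by endothelial cells at sites of vessel remodelling, often opposes it, and Tie1 is a partner of TIE2 in the same complex. Tumor vessels are commonly rich in Angpt2.

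Between genotypes 1 of the 10 genes passed the threshold. Vwf, which encodes the von Willebrand factor that endothelial cells store and that binds platelets at injured vessel walls, was 2.14-fold lower in ΔAgo2 tumors. The other 9 genes did not pass, with log2 fold changes from -1.67 for Angpt1 to 0.50 for Angpt2. By the quasi-likelihood test of edgeR, with Benjamini-Hochberg adjustment over the whole table, 560 of 16061 genes (3.49%) had an adjusted p under 0.05. Of all genes tested 1.36% were higher and 2.12% lower, and the 1 lower gene among 10 is to be read against the latter share. The median log2 fold change was -0.13 over the 10 genes and 0.04 over all genes tested. In a bulk sample fewer endothelial cells and less RNA per cell cannot be told apart.

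The libraries differed in ways that bear on these values. Total counts ran from 7903288 in wild-type tumor 4 to 268564145 in ΔAgo2 tumor 4, and a count of 0 allows up to 0.43 CPM in the former and 0.0105 CPM in the latter, for counting error only. CPM values are counts divided by the TMM-scaled library total and set to a common scale. The Ago2 transcript stood at 154 ± 28.9 CPM (SD, n = 4) in wild-type and 240 ± 99.2 CPM (SD, n = 4) in ΔAgo2 tumors (log2 fold change 0.64, edgeR adjusted p 0.205). It does not check the labels, and every direction below rests on them. Host cells in the tumors keep Ago2, and the study assessed Ago2 protein in its LLC lines by Western blot. Each library also had a trend of its gene levels on the GC content of the genes. Its Spearman correlation was -0.106, 0.603, -0.248 and 0.571 for wild-type tumors 1 to 4, and for ΔAgo2 tumors 1 to 4 it was -0.012, -0.573, -0.399 and -0.546. The most positive trends were thus in a pair of wild-type tumors and the most negative in 3 ΔAgo2 tumors. A trend on gene length had a correlation of -0.076, -0.035, 0.011 and -0.228 for wild-type tumors 1 to 4. For ΔAgo2 tumors 1 to 4 it was -0.444, 0.362, 0.151 and 0.281. With the length trends removed, the median log2 fold change was -0.4 over the 10 genes and -0.08 over all genes tested. Results are given with and without such trends where that matters. All libraries carry the same batch label. Other pan-endothelial genes were detected in every library: all 12 of a list that shares no gene with the 10 were tested, and none had 0 counts. Clec14a had 5 counts in wild-type tumor 4, and detection at this depth does not measure how much endothelium a tumor held.

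Ranked by TPM, a unit that corrects for gene length, Cdh5 stood highest with a mean of 26.6 TPM over the 8 libraries, followed by Pecam1 at 20.1 TPM. These encode VE-cadherin and CD31, which hold endothelial cells together. Then came Tie1 at 10.5, Angpt2 at 8.74 and Flt1 at 5.66 TPM. Vwf at 3.21, Kdr at 2.86, Tek at 2.48 and Flt4 at 1.36 TPM lay lower, and Angpt1 was lowest at 0.258 TPM. The order was kept in every library between Pecam1 and Tie1, between Tek and Flt4 and between Flt4 and Angpt1. Cdh5 was above Pecam1 in 7 of 8. Vwf and Kdr did not keep the order, since Vwf was above Kdr in 4 of 8 libraries, and Tie1 was above Angpt2 in 5 of 8.

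**Figure D1:**
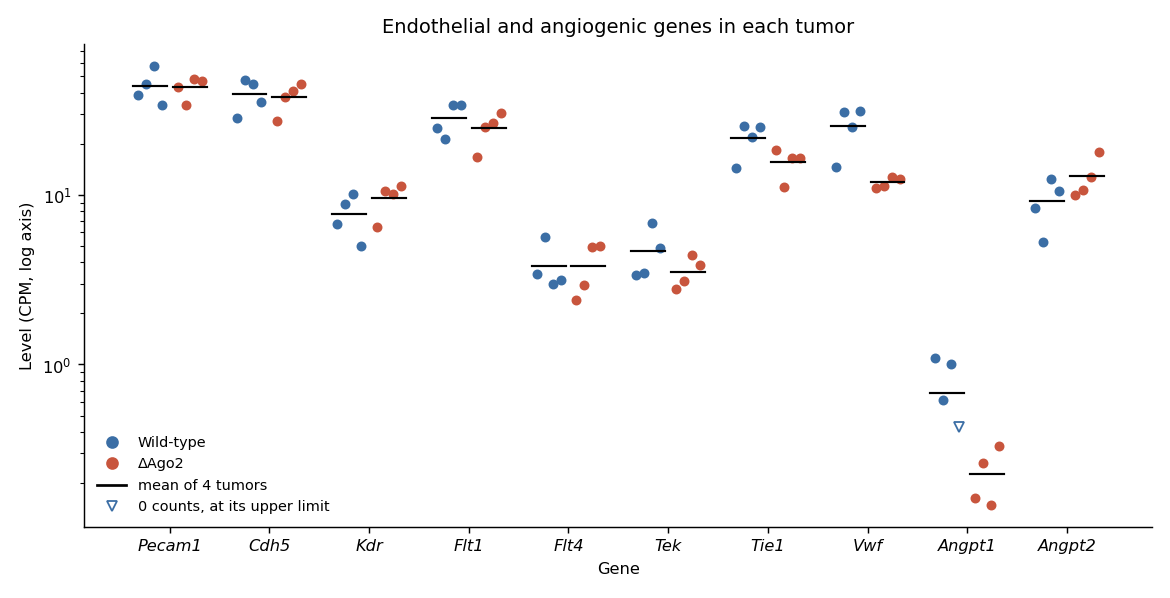
Level of each of the 10 genes in every tumor (CPM, log axis). Points are tumors, blue for wild-type and red for ΔAgo2, black bars are means of 4 tumors, and the open triangle is wild-type tumor 4, where Angpt1 had 0 counts, drawn at the 0.43 CPM that this allows. Vwf is the only gene whose 4 wild-type values all lie above its 4 ΔAgo2 values.

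The junction genes gave the steadiest values. Pecam1 (ENSMUSG00000020717.19, chromosome 11, 106654217 to 106750628 of GRCm38) had 38.7, 45.2, 57.4 and 33.7 CPM in the wild-type tumors, given here and below in the order 1 to 4, and 42.9, 34.0, 48.3 and 47.1 CPM in the ΔAgo2 tumors. The ranges overlapped almost fully, and the log2 fold change was -0.02 with an approximate 95% confidence interval from -0.45 to 0.40 (edgeR adjusted p 0.953). Cdh5 (ENSMUSG00000031871.9, chromosome 8, 104101625 to 104144511) stood at 28.5, 47.3, 45.2 and 35.3 CPM against 27.1, 37.5, 40.6 and 45.2 CPM. Its groups overlapped too (log2 fold change -0.05, interval from -0.51 to 0.40, edgeR adjusted p 0.896). The direction of both turned with the scaling, from -0.02 to 0.03 for Pecam1 and from -0.05 to 0.02 for Cdh5 with total counts. For each gene this approximate interval left out a change of 1.5-fold or more in either direction.

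Among the VEGF receptors no difference passed the threshold. Kdr (ENSMUSG00000062960.10, chromosome 5, 75932827 to 75978458) stood at 6.75, 8.82, 10.1 and 5.02 CPM in wild-type and 6.50, 10.5, 10.1 and 11.3 CPM in ΔAgo2 tumors. The lowest value was that of wild-type tumor 4, and the groups overlapped (log2 fold change 0.32 ± 0.29 SE, edgeR adjusted p 0.487). Flt1 (ENSMUSG00000029648.13, chromosome 5, 147561604 to 147726011) stood at 24.6, 21.3, 33.7 and 33.7 CPM against 16.7, 25.2, 26.6 and 30.2 CPM. ΔAgo2 tumor 1 was lowest, and the log2 fold change was -0.20 ± 0.25 (edgeR adjusted p 0.626). With the length trend of each library removed, the difference in Flt1 was -0.67 (edgeR adjusted p 0.147). Flt4 (ENSMUSG00000020357.3, chromosome 11, 49609263 to 49652739) stood at 3.39, 5.67, 2.96 and 3.15 CPM against 2.40, 2.95, 4.93 and 5.0 CPM. High and low tumors occurred in both groups, and the log2 fold change was 0.01 ± 0.35 with an interval from -0.69 to 0.70 (edgeR adjusted p 0.993).

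Since Flt1 and Kdr bind VEGF-A in competition, their counts were also set against each other within each tumor, which does not depend on library scaling. Counts of Flt1 per count of Kdr were 3.65, 2.42, 3.35 and 6.71 in the wild-type and 2.57, 2.41, 2.62 and 2.67 in the ΔAgo2 tumors. The ΔAgo2 values lay close together, while wild-type tumor 4 stood high on 35 Kdr counts. On the log2 scale the ratio differed by -0.55 (exact two-sided permutation test over 70 assignments, p = 0.114, adjusted p 0.371 over 13 values), where 4 against 4 tumors cannot give a p below 0.0286.

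Neither TIE receptor passed the threshold. Tek (ENSMUSG00000006386.15, chromosome 4, 94739289 to 94874976) stood at 3.37, 3.48, 6.85 and 4.87 CPM in wild-type and 2.79, 3.10, 4.39 and 3.84 CPM in ΔAgo2 tumors (log2 fold change -0.40 ± 0.32, edgeR adjusted p 0.433). Tie1 (ENSMUSG00000033191.14, chromosome 4, 118471191 to 118490061) stood at 14.3, 25.5, 21.8 and 24.9 CPM against 18.4, 11.1, 16.5 and 16.4 CPM. Wild-type tumor 1 lay within the ΔAgo2 range, and the other 3 lay above it (log2 fold change -0.47 ± 0.25, edgeR adjusted p 0.250). With each library's GC trend removed, the difference in Tie1 was -0.07 and that in Tek was -0.70 (edgeR adjusted p 0.880 and 0.239). The ratio of Tie1 to Tek differed by -0.11 on the log2 scale (exact permutation p = 0.771, adjusted p 0.979), and by 0.59 with the GC trend removed (adjusted p 0.248), so its direction depended on that step.

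Of the 10 genes, 5 had an entry in the RefSeq promoter table (GRCm38.p6), all of them receptors. The 120 bases before the RefSeq start are shown for the 3 receptors where at most 3 of these bases lie inside the GENCODE gene, as the start regions of genes whose levels were read; no result here turns on them. The short core GGAA is the one that ETS family factors, among them those of endothelial cells, recognise. Capitals mark GGAA or its reverse complement TTCC, searched on both strands.
Kdr, chr5:75978456-75978575, minus strand: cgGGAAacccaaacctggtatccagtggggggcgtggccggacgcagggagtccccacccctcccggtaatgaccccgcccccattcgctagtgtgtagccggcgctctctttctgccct
Flt1, chr5:147726012-147726131, minus strand: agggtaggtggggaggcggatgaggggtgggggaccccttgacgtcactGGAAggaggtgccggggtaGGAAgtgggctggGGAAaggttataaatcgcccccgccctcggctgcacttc
Tek, chr4:94739169-94739288, plus strand: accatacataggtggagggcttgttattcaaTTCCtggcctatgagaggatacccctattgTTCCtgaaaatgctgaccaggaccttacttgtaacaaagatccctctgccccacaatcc
The core occurred 1 time in Kdr, 3 times in Flt1 and 2 times in Tek, and 1 time in Flt4 and 3 times in Tie1. Of 32851 promoters in the table, 73.4% held it in the same 120 bases, with a median of 1, so its presence does not set these receptors apart. A match is a stretch of letters and not a binding site, and no binding was measured here.

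Vwf (ENSMUSG00000001930.17, chromosome 6, 125546774 to 125686679) was the gene that differed. Wild-type tumors had 14.6, 30.9, 25.1 and 31.1 CPM, and ΔAgo2 tumors had 11.0, 11.3, 12.7 and 12.4 CPM. The groups did not overlap, although wild-type tumor 1 lay close to the ΔAgo2 tumors, and the ΔAgo2 values spread far less. Non-overlapping groups were found in 1 of the 10 genes and in 16.4% of all genes tested. Its mean fell from 25.4 ± 7.74 CPM (SD, n = 4) in wild-type tumors to 11.9 ± 0.821 CPM (SD, n = 4), a log2 fold change of -1.09 ± 0.26 with an interval from -1.60 to -0.59 (edgeR adjusted p 0.0466).

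That call stood at the edge of the threshold. Vwf remained lower in each of 24 alternatives, with log2 fold changes from -1.53 to -0.61, and passed in 10 of them (adjusted p from 0.00204 to 0.372). With the length trend of each library removed, the difference in Vwf was -1.53 and still passed (edgeR adjusted p 0.0444). The GC content of Vwf exons, 56.5%, lies at percentile 84.4 of the genes tested. The 2 highest Vwf values belonged to wild-type tumors 2 and 4, whose GC trends were positive (0.603 and 0.571). Wild-type tumor 3 had 25.1 CPM with a negative trend (-0.248), and ΔAgo2 tumor 1 had the lowest value, 11.0 CPM, with a trend of -0.012. The part of the GC trend in the Vwf result was not tested. With the GC trend of each library removed, the difference in Vwf was -0.74 ± 0.20 (edgeR adjusted p 0.0768). With that correction 528 genes (3.29%) passed, and of the 10 genes Angpt1 alone. The call was also lost without wild-type tumor 2 (-0.98, edgeR adjusted p 0.134), 3 (-1.10, 0.0506) or 4 (-0.98, 0.106) and without ΔAgo2 tumor 2 (-1.08, 0.131), 3 (-1.12, 0.104) or 4 (-1.10, 0.148). It was kept without wild-type tumor 1 (-1.28, edgeR adjusted p 0.0182) and without ΔAgo2 tumor 1 (-1.07, 0.0431).

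Vwf is also made by megakaryocytes and stored in platelets, and in endothelial cells it is stored with P-selectin. Selp, which encodes P-selectin and was chosen after its values were seen, stood at 3.63 ± 0.741 and 3.16 ± 0.655 CPM (SD, n = 4; log2 fold change -0.21, edgeR adjusted p 0.655). Of 10 platelet and megakaryocyte genes 5 were tested, with log2 fold changes from -1.25 to 0.95 and a median of -0.23. Itgb3 was the one that passed, and it rose (0.95, edgeR adjusted p 0.0455). Itga2b, the lowest of the 5 and a platelet integrin chain, also chosen after its values were seen, was 4.20, 6.05, 3.97 and 10 CPM in wild-type and 3.20, 1.82, 2.57 and 2.42 CPM in ΔAgo2 tumors. Its groups did not overlap, but the difference of -1.25 ± 0.36 did not pass (edgeR adjusted p 0.0763). The summed level of the platelet list ran from 66.41 to 115.2 CPM in wild-type and from 59.95 to 121 CPM in ΔAgo2 tumors, 4 of the 10 had 0 counts in some library, and its part in the Vwf result was not tested.

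**Figure D2:**
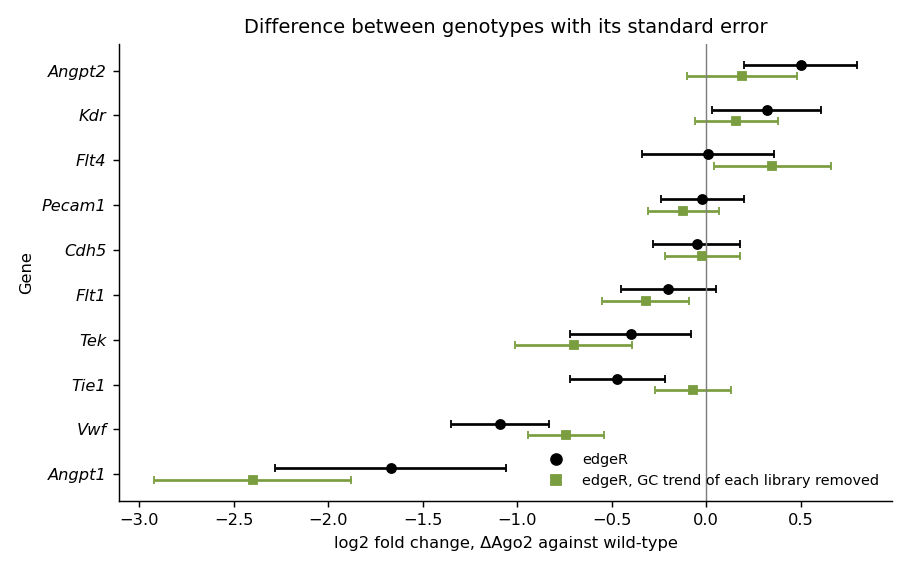
log2 fold change of the 10 genes between ΔAgo2 and wild-type tumors, with bars of 1 standard error, from edgeR (black circles) and from the same test with each library's GC trend removed (green squares). Vwf moves from -1.09 to -0.74 and Angpt1 from -1.67 to -2.40, while Tie1 moves from -0.47 to -0.07.

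The angiopoietins had log2 fold changes of opposite sign, and neither passed the threshold. Angpt1 (ENSMUSG00000022309.9, chromosome 15, 42424723 to 42676977) had 58, 13, 48 and 0 counts in the wild-type and 8, 30, 5 and 94 counts in the ΔAgo2 tumors. Scaled to CPM this was 1.09, 0.620, 1.01 and 0 against 0.164, 0.263, 0.149 and 0.329. The 3 wild-type tumors with counts all stood above the 4 ΔAgo2 tumors. The 0 of wild-type tumor 4, the shallowest library, allows up to 0.43 CPM, which is above every ΔAgo2 value, so this tumor could lie on either side. The counting intervals of the nearest pair met, since wild-type tumor 2 covered 0.330 to 1.06 CPM and ΔAgo2 tumor 4 covered 0.266 to 0.403 CPM (exact Poisson, 95%). The log2 fold change was -1.67 ± 0.61 (edgeR adjusted p 0.125).

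Whether Angpt1 passed depended on the setting. At 39.3% its exon GC content lies at percentile 4.38 of the genes tested, and with each library's GC trend removed the difference was -2.40 ± 0.52 (edgeR adjusted p 0.0384). Angpt1 averaged fewer than the 50 counts required for fitting that trend, so its correction came from more abundant genes. Without wild-type tumor 4 it was -1.94 (edgeR adjusted p 0.0556), and the 3 remaining wild-type tumors had a mean 4-fold that of the ΔAgo2 tumors. Without wild-type tumor 4 and ΔAgo2 tumor 1 together, a choice made after seeing the data, it was -1.83 (edgeR adjusted p 0.0484). Over the alternatives Angpt1 passed in 3 of 20 and kept its direction in all, with adjusted p-values from 0.0215 to 0.459. An exon of Angpt1 overlaps the antisense gene Gm17473, which had 0 counts in all 8 libraries.

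Angpt2 (ENSMUSG00000031465.6, chromosome 8, 18690263 to 18741562, within the span of Mcph1 but sharing no exon with it) stood at 8.34, 5.29, 12.4 and 10.5 CPM in wild-type and 9.99, 10.7, 12.8 and 17.9 CPM in ΔAgo2 tumors. Wild-type tumor 2 was lowest and ΔAgo2 tumor 4 highest, with overlap between. The log2 fold change was 0.50 ± 0.30 with an interval from -0.10 to 1.09 (edgeR adjusted p 0.308), and 0.19 with the GC trend removed. With limma voom and quality weights 27.9% of all genes passed, and among the 10 these were Vwf (-0.61, adjusted p 0.0428), Angpt1 (-1.61, 0.0215) and Angpt2 (0.80, 0.0443).

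Counts of Angpt2 per count of Angpt1 were 7.67, 8.54 and 12.3 for the first 3 wild-type tumors and at least 24.3 in wild-type tumor 4, from its 73 Angpt2 counts over the limit of 3 counts. In ΔAgo2 tumors 1 to 4 they were 60.9, 40.7, 85.6 and 54.4. Angpt2 thus exceeded Angpt1 in every tumor, and the ratio of each of 3 wild-type tumors lay below that of every ΔAgo2 tumor, with the fourth known only as a lower bound. With the 0 entered through a prior count of 2, the log2 ratio differed by 1.15 (exact permutation p = 0.543, adjusted p 0.979). Without wild-type tumor 4 it differed by 2.52 (adjusted p 0.0929 by the same exact test), and with that tumor at 3 counts, a choice made after the data were seen, by 2.18 (adjusted p 0.124). The first of these values places the tumor with 0 counts above every other. The other 2 each had an unadjusted exact permutation p of 0.0286, the smallest possible, and after adjustment no value could pass 0.05 unless 8 of the 13 reached it. As a description chosen after the values were seen, counts of Vwf per count of Angpt2 were 1.75, 5.84, 2.03 and 2.97 in the wild-type and 1.10, 1.06, 0.995 and 0.693 in the ΔAgo2 tumors.

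**Figure D3:**
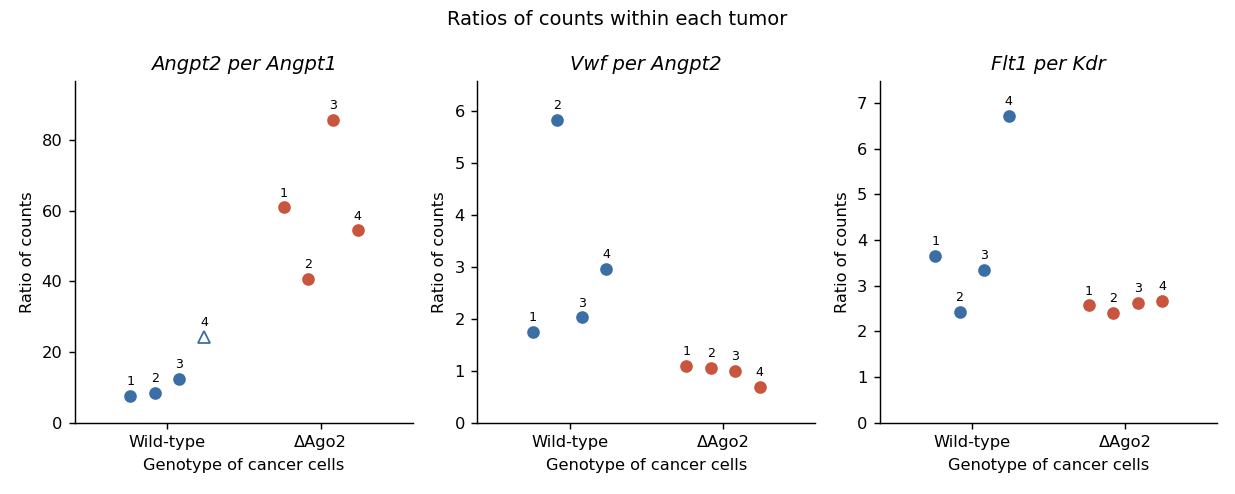
Ratios of counts within each tumor, with the tumor number above each point and linear axes from 0: Angpt2 per Angpt1, Vwf per Angpt2 and Flt1 per Kdr. The open triangle is wild-type tumor 4, which had 0 Angpt1 counts, drawn at the lower bound of 24.3 that a limit of 3 counts gives. ΔAgo2 tumors range from 40.7 to 85.6.

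To ask whether a gene differed beyond the endothelial share of the tumor, each was set against the mean log2 CPM of the 12 other pan-endothelial genes in the same library. That reference stood at 3.12 ± 0.253 in wild-type and 3.07 ± 0.326 in ΔAgo2 tumors (SD, n = 4), a difference of -0.05 (exact permutation p = 0.771). Relative to it, Vwf was lower by a log2 difference of -0.99 and Tie1 by -0.41, each at the smallest p that 4 against 4 tumors can give by the exact permutation test (p = 0.0286, adjusted p 0.186). With 13 values adjusted together, none can pass 0.05 unless 8 reach the smallest p, so the count of 0 of 10 genes past the adjusted threshold does not answer the question. By the unadjusted exact test 2 of the 10 had a p under 0.05, and no share over all genes was computed for that test. By the unadjusted edgeR test 2 of the 10 and 4281 of all 16061 genes had a p under 0.05. Angpt2 differed by 0.57 and Kdr by 0.39 (exact permutation p = 0.114 and 0.343), and the other 6 had exact permutation p-values from 0.343 to 1. With the GC trend removed, the difference of Vwf from the reference was -0.67 and that of Tie1 was -0.03 (adjusted p 0.248 and 0.960).

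The GC content of the 12 reference genes went with their fold change. Over them the Spearman correlation between GC content and log2 fold change was -0.73. It was -0.39 over the 10 genes and the reference together and -0.56 over all genes tested. The 10 genes alone were mixed, and no correlation was computed for them. Angpt1, lowest in GC content at 39.3%, had the lowest fold change (-1.67), and Flt4 at 56.5% gave 0.01. Vwf, also at 56.5%, gave -1.09, and Tie1 at 57.6% gave -0.47. These points share the 8 libraries and their base composition trends, and genes are not replicates. With each library's trend removed, the correlations were 0.20, 0.31 and 0.01. That step fits and takes out the trend over all genes, so the last of these values follows from it. Since the trends differed between the groups, it can also take out true differences between genotypes. Rasip1, a Ras-interacting protein needed for vessel lumens, with the highest GC content of these 22 genes at 63.6%, went from -0.89 to -0.15, and Plvap, the diaphragm protein of fenestrated capillaries, went from -0.45 to 0.10. Under the correction Angpt1 at -2.40 and Vwf at -0.74 were still the 2 lowest of the 10, with Tek at -0.70 close to Vwf, and the reference gene Tspan7, a tetraspanin, lay below Vwf at -0.80.

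**Figure D4:**
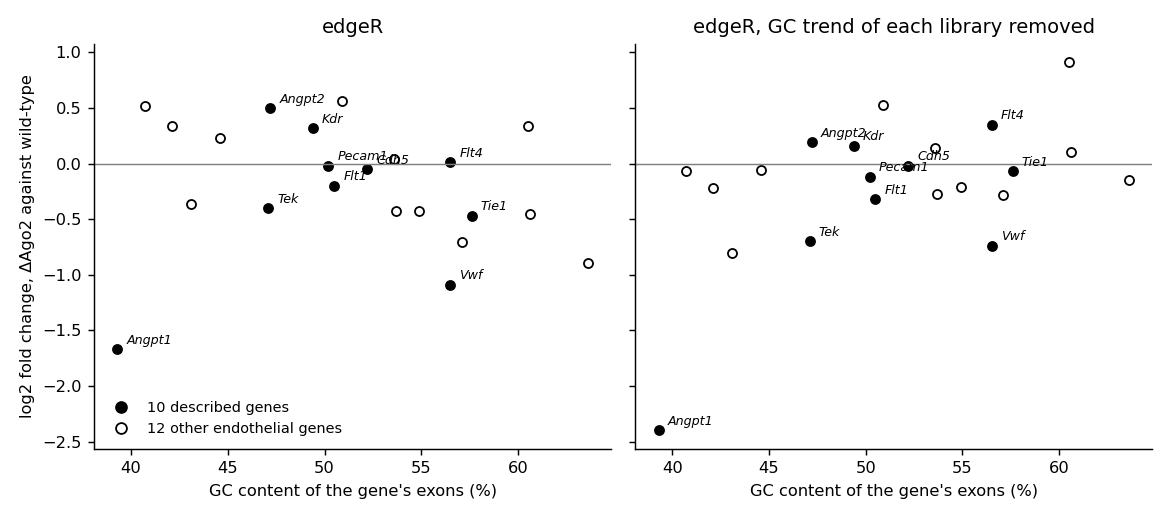
log2 fold change between genotypes against exon GC content for the 10 genes (filled, named) and the 12 other pan-endothelial genes (open), from edgeR (left) and with each library's GC trend removed (right). Among the reference genes the correlation is -0.73 on the left and 0.20 on the right, where the fit has taken the trend out. Vwf lies at -0.74 and the reference gene Tspan7 at -0.80 on the right.

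Across tumors most pairs of these genes had weak positive correlations. With the mean of each genotype removed, 35 of 45 pairs of the 10 genes had a positive Pearson correlation of log2 CPM over the 8 libraries, with a median of 0.29 and a range from -0.53 to 0.86. Among the 8 genes other than the angiopoietins 26 of 28 pairs were positive, with a median of 0.36, and the negative pairs were Kdr with Tie1 (-0.17) and Flt1 with Tie1 (-0.07). The closest pairs were Cdh5 with Kdr (0.80), Flt1 with Tek (0.79) and Tie1 with Vwf (0.78). Angpt2 went with Flt1 (0.86) and Tek (0.78) but had a correlation of 0.00 with both Vwf and Tie1. These are descriptions over 8 libraries that share depth and GC trends, without a test.

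Searched over the 10508 genes that reached a mean of 5 CPM, the genes most like each member by this measure differed between members. They are the highest of 10508 correlations over 8 libraries with 6 residual degrees of freedom. Such a search returns high values among unrelated genes too. The libraries also share depth and GC trends, so these are descriptions without a test. For Tie1 they were Nos3, the endothelial nitric oxide synthase (0.977), the endothelial guidance receptor Robo4 (0.957) and Rasip1 (0.950). For Angpt2 they were Arg1 (0.982), which encodes arginase 1, Mmp19 (0.962) and Ptgs2 (0.955), and for Flt1 they were Sgk1 (0.981), the tissue factor gene F3 (0.969) and Ift57 (0.961). For Pecam1 the closest was Plpp3 (0.985), for Cdh5 Gabarapl1 (0.964), for Kdr Efna5 (0.972), for Flt4 Pou6f1 (0.960), for Tek Mxi1 (0.909) and for Vwf Dmpk (0.956). No list is given for Angpt1, whose values over tumors turn on the 0 of wild-type tumor 4.

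Around these receptors, 100 genes of 10 vascular lists were examined, of which 96 were tested. Of these, 1 rose and 3 fell in ΔAgo2 tumors (4.17%, beside 3.49% of all genes), and their median log2 fold change was -0.21. Among the 7 VEGF ligands and co-receptors, Nrp2, a semaphorin and VEGF co-receptor, rose from 130, 147, 138 and 120 CPM to 213, 498, 312 and 430 CPM. The groups lay well apart, with a log2 fold change of 1.44 ± 0.26 (edgeR adjusted p 0.0180). Nrp2 passed in 16 of 24 alternatives and kept its direction in all of them, but not without wild-type tumor 2 or 4 or ΔAgo2 tumor 2 or 4 (1.49, 1.39, 1.24 and 1.36, edgeR adjusted p from 0.0502 to 0.0699). Its related co-receptor Nrp1 stood at 38.8, 30.4, 33.6 and 21.1 CPM against 14.2, 25.5, 16.8 and 22.6 CPM. The ranges overlapped and the difference of -0.65 ± 0.26 did not pass (edgeR adjusted p 0.147), but with the GC trend removed it was -1.34 (adjusted p 0.00224).

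None of the VEGF ligands passed the threshold. Vegfc, a ligand of VEGFR3, had wild-type values from 9.49 to 12.9 CPM and ΔAgo2 values from 14.2 to 21.2 CPM. Its groups did not overlap, but the log2 fold change of 0.61 ± 0.22 did not pass (edgeR adjusted p 0.12) and was 0.15 with the GC trend removed. Vegfa, the main ligand of Kdr and Flt1, stood at 81.8 ± 36.3 and 60.3 ± 16.3 CPM (SD, n = 4), a log2 fold change of -0.44 (edgeR adjusted p 0.375). Pgf, the placental growth factor that binds Flt1 alone of the 3 receptors, stood at 12.9, 11.3, 29.3 and 57.3 CPM against 16.5, 5.03, 13.9 and 12.6 CPM. Wild-type tumors 3 and 4 carried its higher mean, and the difference of -1.19 ± 0.52 did not pass (edgeR adjusted p 0.176). Vegfb and Vegfd gave -0.41 and -0.14 (edgeR adjusted p 0.302 and 0.621).

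Of 5 partners of the angiopoietin and TIE axis none passed, and their median was 0.00. Ptprb, the phosphatase that switches TIE2 off, stood at 5.14 ± 2.55 and 7.14 ± 2.44 CPM (log2 fold change 0.45, edgeR adjusted p 0.464). Svep1, a large matrix protein, stood at 7.72 ± 4.72 and 3.66 ± 1.47 CPM (-1.09, edgeR adjusted p 0.163), and the adaptor gene Dok2 at 84.0 ± 49.4 and 43.4 ± 25.4 CPM (-0.95, edgeR adjusted p 0.218; SD, n = 4 for all). Among the 12 reference genes none passed either, with a median of -0.16, and the highest was Ecscr at 0.56 (edgeR adjusted p 0.202).

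Other vascular lists held 3 genes that fell. Pdgfc, a platelet-derived growth factor chain and 1 of 9 other angiogenic growth factors, went from 47.6, 30.9, 55.0 and 27.1 CPM to 7.59, 6.30, 10 and 8.45 CPM. That difference of -2.32 ± 0.28 was far outside the spread of either group (edgeR adjusted p 0.0027) and passed in 23 of 24 alternatives. Ephb4, the venous receptor for ephrin-B2, was the gene of 13 arterial, venous and capillary genes that passed, at 45.5 ± 12.9 and 18.2 ± 1.42 CPM (log2 fold change -1.32, edgeR adjusted p 0.0157), with no overlap. With the GC trend removed it was -0.84 (edgeR adjusted p 0.00854), and the call was lost without wild-type tumor 2 or ΔAgo2 tumor 2, 3 or 4 (-1.23, -1.28, -1.33 and -1.34, edgeR adjusted p from 0.0572 to 0.0686). Adamts1, a matrix protease that holds back angiogenesis and 1 of 8 angiogenesis inhibitors, stood at 46.1 ± 6.21 and 17.8 ± 6.47 CPM (-1.37, edgeR adjusted p 0.0355; SD, n = 4). That call was lost without wild-type tumor 2 or 4 or ΔAgo2 tumor 2, 3 or 4 (from -1.48 to -1.28, edgeR adjusted p from 0.0628 to 0.111). These genes are also expressed outside the endothelium, and bulk RNA does not tell their source.

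In the remaining vascular lists no gene passed. The Notch and tip cell list, with 13 of 14 genes tested, had a median of -0.11, and its most abundant gene Unc5b, a netrin receptor, gave 0.15 (edgeR adjusted p 0.734). Endothelial transcription factors, with 11 of 12 tested, had a median of -0.08, and Klf2, induced by blood flow, gave -0.22 (edgeR adjusted p 0.751). Pericyte and vascular smooth muscle genes had a median of -0.38 over 14 tested, and Mcam gave -0.11 (edgeR adjusted p 0.770). Of these 14 genes 11 were negative, beside 7634 of all 16061 genes. Of 6 lymphatic genes 4 were tested, with a median of 0.02, and Pdpn gave 0.14 (edgeR adjusted p 0.842). Prox1, which defines lymphatic endothelium, had 7, 0, 8 and 2 counts in the wild-type and 3, 13, 3 and 16 counts in the ΔAgo2 tumors, so this marker was near 0. Lyve1 and Pdpn, which other cells also express, stood at means of 12.1 and 23.0 CPM over the 8 tumors.

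**Figure D5:**
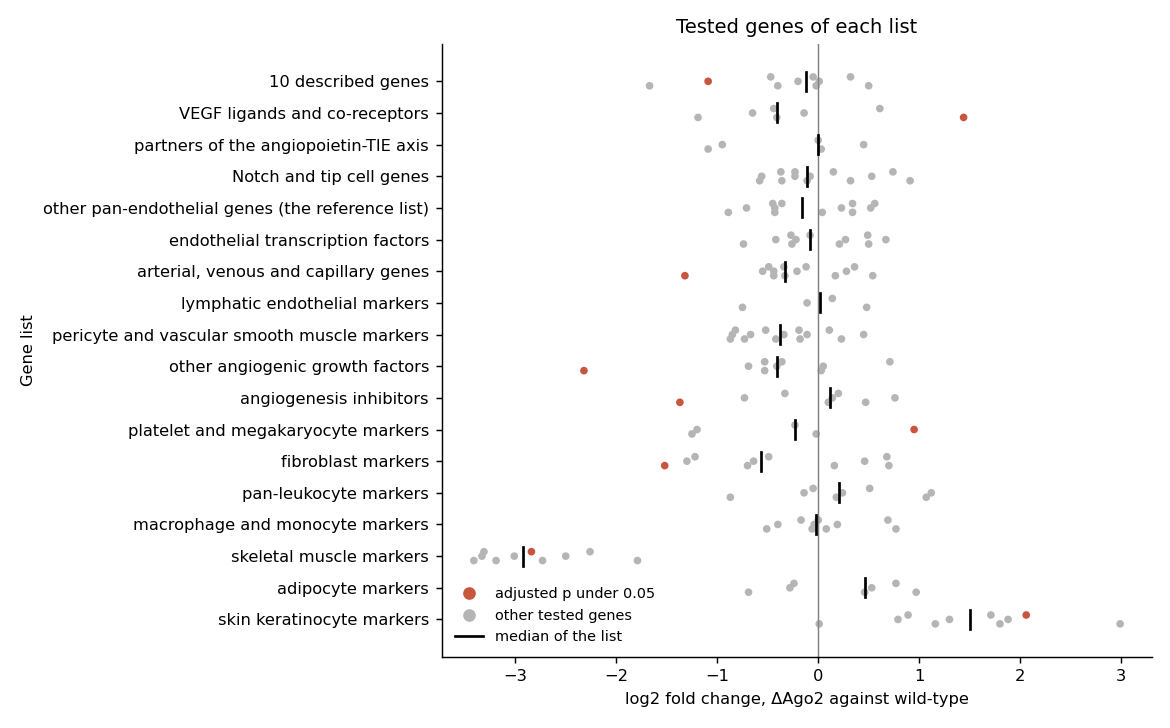
log2 fold change between ΔAgo2 and wild-type tumors for every tested gene of the 10 described genes, the 10 vascular lists and 7 lists of other cell types. Red points passed an adjusted p of 0.05 by edgeR, grey points did not, and black bars are medians; 4 of 96 vascular list genes are red, and the muscle list has the lowest median at -2.92.

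Markers of some other cell types differed widely between single tumors. Of 60 tested genes in 7 such lists, 2 rose and 2 fell (6.67%, beside 3.49% of all genes). Groups did not overlap in 25% of them, in 8.33% of the vascular list genes and in 16.4% of all genes. The summed level of 10 skeletal muscle genes was 3717 CPM in wild-type tumor 3, from 272.7 to 489.5 CPM in the other wild-type tumors and from 54.28 to 220.5 CPM in ΔAgo2 tumors. All 10 were negative with a median of -2.92, and Myh2, a myosin of fast fibers, passed (-2.84, edgeR adjusted p 0.0305). Without wild-type tumor 3 Myh2 was -2.0 (edgeR adjusted p 0.0345). The summed level of 10 skin keratinocyte genes was 15.3 CPM in wild-type tumor 3, from 182.3 to 608.1 CPM in the others and from 505.3 to 962.8 CPM in ΔAgo2 tumors, and Krt10 passed (2.06, edgeR adjusted p 0.0460). Wild-type tumor 3 also had the highest wild-type level of Pecam1, Kdr, Tek and Angpt2, and the part of such tissue in these values was not tested. Without it, Vwf was -1.10 and Angpt2 was 0.69. The Myh2 call was lost without wild-type tumor 2 or ΔAgo2 tumor 2, 3 or 4 (edgeR adjusted p from 0.0515 to 0.0923), and the Krt10 call was lost without any of these or wild-type tumor 1 or 4 (from 0.0502 to 0.139).

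In the fibroblast list Fap, a protease of activated stroma, passed (-1.52, edgeR adjusted p 0.0329), and the median over 10 genes was -0.57. In the platelet list the integrin chain Itgb3, which endothelial and other cells also express, passed in the other direction (0.95, edgeR adjusted p 0.0455). Without wild-type tumor 2 or 4 or ΔAgo2 tumor 2, 3 or 4 neither call stood, nor that of Itgb3 without wild-type tumor 1 (edgeR adjusted p from 0.0526 to 0.121 for Fap and from 0.069 to 0.145 for Itgb3). No gene of the leukocyte, macrophage or adipocyte lists passed. Their medians were 0.21, -0.02 and 0.46, and their most abundant genes Coro1a, C1qa and Fabp4 gave -0.87, -0.17 and 0.77 (edgeR adjusted p 0.263, 0.813 and 0.533). In the leukocyte list 5 of 8 genes were positive, beside 8427 of all 16061 genes. Ptprc, which encodes the pan-leukocyte marker CD45 and was chosen after its values were seen, stood at 33.1, 23.1, 25.8 and 13.9 CPM in wild-type and 35.5, 83.6, 40.9 and 49.6 CPM in ΔAgo2 tumors. Its groups did not overlap, but the difference of 1.12 ± 0.33 did not pass (edgeR adjusted p 0.0785) and was 0.26 with the GC trend removed. Macrophages can also express Flt1. For macrophage genes the summed level was 2904 CPM in ΔAgo2 tumor 1 and from 1162 to 1405 CPM in the other ΔAgo2 tumors, and ΔAgo2 tumor 1 had the lowest Flt1. C1qa, C1qb and C1qc alone stood at 921, 706 and 605 CPM there. Among ΔAgo2 tumors Cd68, Itgam, Fcgr1 and Ms4a7 were also highest in tumor 1, while Adgre1, Csf1r and Mrc1 were not. These genes were named after their values were seen. The same library had the most negative trend on gene length (Spearman -0.444), and Flt1 exons span 13504 bases. The part of macrophages and of the length trend in the level of Flt1 was not tested.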

How the data were processed

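RNA-seq of 8 LLC tumors (4 wild-type, 4 ΔAgo2, day 12) was read from 2 tables. Per the labels, libraries were made with a stranded mRNA kit and sequenced paired-end at 100 bp. The authors deposited raw gene counts, without normalization, and TPM values, which they corrected for gene length. The labels name STAR and mm10. How strand and multimapping reads were handled was not given in the sources used here, and the methods describe counting for cultured cells. Of 55487 identifiers, 99.29% matched GENCODE M21 (GRCm38) with their version.

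Counts were tested in R 4.3.3 with edgeR 4.0.16 (filterByExpr, TMM, quasi-likelihood test, genotype only, Benjamini-Hochberg adjustment over 16061 genes, threshold 0.05). Intervals of fold changes used the normal quantile and are narrower than the quasi-likelihood test would give. TPM served for ranks between genes and for limma 3.58.1 alternatives. Log2 CPM used a prior count of 2. Reference-relative values and ratios were compared by exact two-sided permutation over 70 assignments, adjusted over 13 values. Trends on GC content and length, fitted in each library on genes averaging 50 counts or more, served as offsets. Other alternatives were DESeq2 1.42.0, other scalings, limma voom, filters, thinning, the replicate block and leaving out each library. The procedure was tested on simulated counts. Annotation was read in Python 3.11.15. Libraries of a group differed beyond sampling noise in all 12 pairs.

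Named genes were the 10 members, Ago2, any gene of the VEGF, TIE and reference lists, and from each other list the genes past the threshold (at most 4) or else the most abundant gene tested. Genes outside this rule are marked. The members and lists were chosen with earlier results of these data known, so no list is independent evidence.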

Additional observations from a re-analysis of the deposited data

Results flagged for a closer look

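Among 48 groups of 4 tumors that were examined for a value far from the other 3 (by Dixon's ratio at its 95% critical value), 4 were found, where chance gives 2.4. Flt4 was 5.67 CPM in wild-type tumor 2 and from 2.96 to 3.39 CPM in the other wild-type tumors. Pecam1 relative to the pan-endothelial reference was 1.90 on the log2 scale in wild-type tumor 4 and from 2.41 to 2.45 in the others. Angpt2 relative to the reference was -0.656 in wild-type tumor 2 and from 0.199 to 0.242 in the others. The log2 ratio of Angpt2 to Angpt1 was 8.65 in wild-type tumor 4 and from 2.91 to 3.58 in the others, and it rests on 0 Angpt1 counts there.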

How the results depend on the processing

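Counts of calls depended on the setting. Against 560 genes, 1 of the 10 genes and 4 vascular list genes past the threshold, the DESeq2 Wald test gave 2274 genes, and limma voom with quality weights gave 4476, 3 and 19. No count filter gave 983 genes and the length correction 963. With total counts 0 of the 10 genes passed. Limma on log2(TPM + 1) gave 153, 0 and 1, on log2(TPM + 0.1) 107, 0 and 1, and on log2(TPM + 1) without a filter 77, 0 and 0. The median log2 fold change of all genes, 0.04 with counts, was 0.21 and 0.28 with the filtered TPM settings, and -0.08 with the length correction. Leaving out each library in turn gave from 88 to 1793 genes, from 0 to 1 of the 10 genes and from 1 to 7 vascular genes. The count of all genes was 143 without wild-type tumor 2, 934 without 3 and 265 without 4, 1793 without ΔAgo2 tumor 1, and from 88 to 166 without ΔAgo2 tumor 2, 3 or 4. The vascular count was 1 without wild-type tumor 2, 2 without 4, and 7, 1, 2 and 1 without ΔAgo2 tumors 1 to 4. The cause was not tested.

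Same-numbered tumors did not deviate together, with correlations of -0.236, 0.103, -0.045 and -0.290 for numbers 1 to 4. These values gave no sign of pairing by number, but such correlations cannot settle whether the numbers pair the samples. With the replicate block 70 genes passed, 0 of the 10 genes and 1 vascular gene, and with the replicate block and the GC correction together 260 genes and 0 of the 10 genes.

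Some directions turned. Flt4 (0.01) was -0.01 with DESeq2 size factors and with the DESeq2 Wald test, -0.06 with the upper quartile, -0.02 with the replicate block, -0.29 with the length correction and -0.15 when thinned, and from -0.14 to 0.27 leaving out each library. Pecam1 (-0.02) was 0.03 with total counts and with no filter, 0.06 with voom, and 0.20, 0.21 and 0.20 with the TPM settings, and from -0.12 to 0.14 leaving out each library. Cdh5 (-0.05) was 0.02 with total counts, 0.01 with no filter, 0.31 with voom and 0.16, 0.17 and 0.16 with TPM, and from -0.18 to 0.06 leaving out each library. Flt1 (-0.20) was 0.08 with voom and 0.03, 0.02 and 0.03 with TPM, and from -0.31 to -0.05 leaving out each library. Voom also turned Vegfa to 0.02, Klf2 to 0.16, Pdpn to -0.14 and Mcam to 0.21. The TPM settings turned Klf2 to 0.16, 0.16 and 0.16, Mcam to 0.12, 0.13 and 0.12, Vegfd to 0.08, 0.08 and 0.08, and Selp to 0.01, 0.02 and 0.01. The GC correction, without and with the block, turned Klf2 to 0.53 and 0.56, Mcam to 0.03 and 0.05, Vegfb to 0.25 and 0.27, Plvap to 0.10 and 0.07, and C1qa to 0.32 and 0.11, and with the block Fabp4 to -0.05. The length correction turned Unc5b to -0.10. Leaving out each library gave from -0.48 to 0.34 for Klf2, from -0.10 to 0.65 for Pdpn, from -0.87 to 0.05 for C1qa, from 0.00 to 0.35 for Unc5b and from -0.33 to 1.75 for Fabp4. Leaving out wild-type tumor 4 and ΔAgo2 tumor 1 together, chosen after seeing the data because of their depth and length trends, turned Cdh5 to 0.02, Flt1 to 0.03, Klf2 to 0.06, Pdpn to -0.27 and Fabp4 to -0.48.

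Relative to the reference, Cdh5 (0.00) was 0.07 when thinned, 0.01 with TPM, 0.03 with the GC correction and 0.09 with the median of the reference, and Flt4 was 0.00 when thinned. Pecam1 (0.04) was -0.08 with the GC correction. Leaving out each library gave from -0.13 to 0.29 for Cdh5, -0.16 to 0.38 for Flt4, -0.09 to 0.18 for Pecam1, -1.87 to 0.05 for Angpt1 and -0.30 to 0.16 for Flt1. The Tie1 to Tek ratio (-0.11) was 0.01 when thinned and 0.59 with the GC correction, and from -0.30 to 0.10 leaving out each library. Depth limits Angpt1 most. Its fold change could not be tested when thinned or with 10 counts in every library, while on thinned counts its difference from the reference was -1.24 against -0.58 and the Angpt2 to Angpt1 ratio differed by 1.79 against 1.15 (exact permutation test, adjusted p 0.318 for both).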
